A study of Mus musculus with 12 samples.

Results

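The genes described are 10 genes in, or linked to, the feedback system that edits ubiquitin chains on the way from Toll-like and TNF receptors to NF-kB. They are *Tnfaip3*, which encodes A20, its binding partners *Tnip1*, *Tnip2* and *Tnip3*, the deubiquitinase gene *Cyld*, the adaptor gene *Traf1*, the ubiquitin ligase genes *Birc2* and *Birc3*, and the NF-kB-linked genes *Bcl3* and *Tnfaip2*. They were taken by name from a table of 55487 mouse gene models, and each of the 10 symbols matched 1 gene model. RNA was sequenced from bone-marrow-derived macrophages (BMDMs), which are marrow cells grown into macrophages in medium conditioned by L929 cells. The 4 groups of 3 libraries each were KO BMDMs treated with LPS (100 ng/ml for 4 h), WT BMDMs treated the same way, untreated KO BMDMs and untreated WT BMDMs. The KO mice were labelled Rasgef1b-fl/fl;CMVcre and the WT mice wildtype, both on a C57BL/6 background and 8 to 12 weeks old. The transgene CMVcre deletes floxed exons in all tissues, so *Rasgef1b*, a gene for a guanine nucleotide exchange factor, was disrupted throughout the body and not only in macrophages. The study's methods name a general animal facility as the source of the WT mice and do not call them littermates, and no floxed allele or Cre is named for them, so genotype, colony and the presence of Cre cannot be told apart. The libraries are described as independent biological replicates, compared as different BMDM samples and unpaired by the study's methods, and which mouse gave which library is not given in the sources used here.

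As background, a receptor such as TLR4, which recognizes LPS, or the TNF receptor recruits TRAF adaptors and ligases that build ubiquitin chains, and these chains gather the kinases that release NF-kB into the nucleus. A20 trims and replaces such chains and binds linear chains, its partners of the ABIN family hold it to them, and the deubiquitinase CYLD removes them. TRAF1 and the ligases cIAP1 and cIAP2, encoded by *Birc2* and *Birc3*, form a complex with TRAF2 that adds chains to receptor-bound kinases. Several of these genes are themselves known NF-kB targets, which is why the system is described as a feedback loop in macrophages.

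The recovered reads in genes numbered 19316691 to 24977356 per library, and the normalized counts cited are gene counts divided by a size factor per library. The factors made 1 read worth 1.21 to 1.41 normalized counts in LPS libraries and 0.660 to 0.855 in untreated ones, and the sums over all genes were 25980274 to 28238994 normalized counts after LPS, against 16361938 to 17384974 without it. *Rasgef1b* itself had 3618 to 4192 normalized counts in KO against 11844 to 12554 in WT BMDMs after LPS, and 545 to 695 in KO against 2001 to 2171 in WT BMDMs when untreated. Counts cover the whole gene, so they do not isolate the deleted exons. All 8 macrophage markers checked were present in every library. They summed to 273170 to 339137 normalized counts in KO and 339103 to 392543 in WT BMDMs after LPS. Without LPS the sums were 215104 to 268170 in KO and 261612 to 323497 in WT BMDMs. After LPS, *Lyz2* was lower in KO without overlap (128987 to 177890, against 183946 to 214039 in WT BMDMs). So was *Mertk* (6454 to 7182, against 7490 to 8230), while *Itgam* was higher in KO (5146 to 5674, against 4499 to 4739). The same held without LPS for *Mertk* (1293 to 1790 in KO, against 1817 to 2239 in WT BMDMs) and *Itgam* (4824 to 5067, against 4262 to 4552). *Lyz2* overlapped without LPS, and the other macrophage markers overlapped in both conditions. All KO libraries were higher in 8.35% of genes tested after LPS and 8.41% untreated, and lower in 7.73% and 7.98%. Of 6 T cell markers, *Lck* alone had a mean of at least 10, at 675 to 1108 in KO and 1023 to 1347 in WT BMDMs after LPS, and the defining marker *Cd3d* was at 0 in all libraries. The 4 endothelial markers summed to 872 to 1154 in KO and 723 to 935 in WT BMDMs after LPS, against 81.6 to 105 in KO and 90.0 to 141 in WT BMDMs without it, nearly all from *Kdr*. The 5 dendritic cell markers summed to 92.6 to 128 in KO and 77.4 to 98.8 in WT BMDMs after LPS, against 10.3 to 23.3 in KO and 12.5 to 19.8 in WT BMDMs without it. The lists for neutrophils and their progenitors (258 to 1252), B cells (29.9 to 86.1), stromal cells (9.56 to 55.6), mast cells and basophils (at most 7.92) and erythroid cells (at most 4.09) were low beside the macrophage markers. The part of other cells in the results was not tested. In replicate 2 of the untreated KO BMDMs, 5.06% of reads fell on a gene model classed here as like *Rn45s*, a ribosomal RNA gene. It took 0.0398% to 0.0874% in the other 11 libraries. In the study's mapping figures an untreated KO sample had the lowest share of uniquely mapped reads, and its replicate number is not given there.

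Promoter windows were examined because the genes moved together with LPS, and NF-kB is the factor that the pathway releases. The 10 genes have 12 annotated starts in RefSeq (GRCm38.p6), each shown by a window of 250 bases before and 50 bases from the start base, which is numbered 0. The NF-kB consensus, searched on both strands, occurred in windows of 6 genes (*Tnfaip3*, *Tnip1*, *Tnip3*, *Tnfaip2*, *Cyld* and *Bcl3*), that is 6 of 12 windows, while 8.46% of the 32851 windows of all genes hold it. It was not matched in the windows of *Traf1*, *Birc2*, *Birc3* and *Tnip2*, and in the second *Tnfaip3* window. The shorter form, GGG and CC with any 5 bases between them, which includes every match of the consensus, was in 8 of the 12 windows, beside 50.8% of all windows. The AP-1 motif TGANTCA was in 1 window, that of *Tnfaip3*, beside 7.81% of all windows, and the interferon-type motif, GAAA repeated after any 2 bases, was in 0 of 12, beside 3.44%. A match is a run of letters and no evidence of binding.

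The windows of 4 genes are printed, from both ends of the response. They are *Traf1*, *Tnfaip3* and *Tnip3*, the genes with the largest changes with LPS, and *Cyld*, the gene with the smallest. The windows of genes between these ends are not printed. Capitals mark matches of the NF-kB consensus on either strand, and each window is printed in the direction of transcription, 5′ to 3′. They lie at chr10:19015361-19015660 (minus strand) for *Tnfaip3*, chr6:65590148-65590447 (plus strand) for *Tnip3*, chr2:34961723-34962022 (minus strand) for *Traf1* and chr8:88696778-88697077 (plus strand) for *Cyld*. The RefSeq start used for *Tnip3* lies inside the gene model whose position is given below (chr6:65525313-65634040). The 5′ end of that model was not examined.
Tnfaip3: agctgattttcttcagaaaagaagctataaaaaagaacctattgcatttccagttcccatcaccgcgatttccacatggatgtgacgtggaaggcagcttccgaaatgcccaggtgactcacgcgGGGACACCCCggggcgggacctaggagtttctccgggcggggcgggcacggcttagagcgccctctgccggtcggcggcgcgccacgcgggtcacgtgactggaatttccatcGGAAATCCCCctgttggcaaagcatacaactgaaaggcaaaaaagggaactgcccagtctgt
Tnip3: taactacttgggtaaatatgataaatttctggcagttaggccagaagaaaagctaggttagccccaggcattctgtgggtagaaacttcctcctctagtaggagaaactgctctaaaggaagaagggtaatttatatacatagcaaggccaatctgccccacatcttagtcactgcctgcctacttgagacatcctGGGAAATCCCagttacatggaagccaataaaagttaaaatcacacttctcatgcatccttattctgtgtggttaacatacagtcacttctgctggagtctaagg
Traf1: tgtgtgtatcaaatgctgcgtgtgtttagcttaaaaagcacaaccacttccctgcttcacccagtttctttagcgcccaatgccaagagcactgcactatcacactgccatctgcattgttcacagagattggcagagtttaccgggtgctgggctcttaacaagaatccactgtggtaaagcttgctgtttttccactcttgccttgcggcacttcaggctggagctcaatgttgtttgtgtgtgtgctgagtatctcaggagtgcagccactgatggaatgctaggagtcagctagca
Cyld: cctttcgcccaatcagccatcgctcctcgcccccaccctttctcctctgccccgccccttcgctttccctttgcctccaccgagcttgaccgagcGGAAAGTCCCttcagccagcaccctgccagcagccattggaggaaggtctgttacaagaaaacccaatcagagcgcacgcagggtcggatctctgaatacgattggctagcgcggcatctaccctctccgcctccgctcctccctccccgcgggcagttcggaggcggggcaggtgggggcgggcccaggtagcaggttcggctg
In *Tnfaip3* the matches lie at -125 to -116 and at -12 to -3, the second site being read as GGGGATTTCC on the minus strand of the window, and the AP-1 match lies at -136 to -130. The *Tnip3* match at -54 to -45 holds on both strands, as GGGAAATCCC and GGGATTTCCC. The *Cyld* match, at -155 to -146, reads GGGACTTTCC on the opposite strand. The other windows with a match were those of *Tnip1* (GGGGAATTCC at -58 to -49, with overlapping matches up to -47), *Tnfaip2* (GGGGCCCTCC on the opposite strand at -24 to -15) and *Bcl3* (GGGAAGTCCC at 2 to 11, past the start). The genes with a match had log2 fold changes with LPS in WT BMDMs of 5.24 (*Tnfaip3*), 4.90 (*Tnip3*), 3.93 (*Tnfaip2*), 3.93 (*Bcl3*), 2.83 (*Tnip1*) and 0.63 (*Cyld*). Those without a match had 6.37 (*Traf1*), 3.26 (*Birc3*), 2.36 (*Birc2*) and 1.001 (*Tnip2*). Whether a match goes with the response was not tested.

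**Figure D1:**
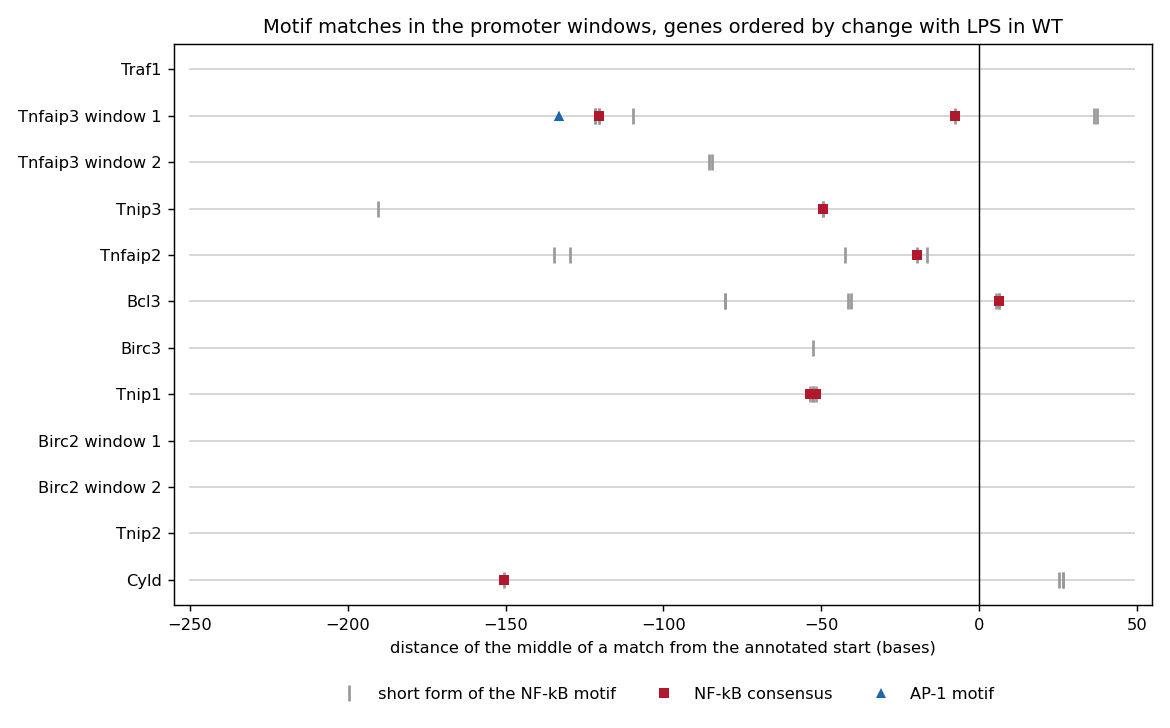
Motif matches in the 12 promoter windows. The x axis gives the distance in bases of the middle of a match from the annotated start, rows are windows ordered by the change of the gene with LPS in WT BMDMs, red squares are NF-kB consensus matches, grey ticks the shorter form and the blue triangle the AP-1 motif. The top row, *Traf1*, is empty, and the bottom row, *Cyld*, has 1 red square between -155 and -146. Between them, red squares lie in the rows of *Tnfaip3* window 1, *Tnip3*, *Tnfaip2*, *Bcl3* and *Tnip1*.

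LPS raised most of these genes in both genotypes. Of the 10, 8 rose in KO BMDMs, where 17.3% of the 12732 genes tested rose, and 9 rose in WT BMDMs, where 17.1% of the 12656 genes tested rose (limma, adjusted p under 0.05 and a log2 fold change of at least 1). The median log2 fold change of the 10 was 3.78 in KO and 3.59 in WT BMDMs, beside -0.01 in KO and -0.02 in WT BMDMs over all genes tested. The 10 genes were chosen with earlier results of these data known, so these counts and medians are a description and no test. In all 10 genes the lowest LPS library lay above the highest untreated library, in KO and in WT BMDMs alike, as it did for 38.4% of the genes tested in KO and 38.3% in WT BMDMs. Together the 10 genes held 0.652% ± 0.0304 of all normalized counts in KO and 0.665% ± 0.0415 in WT BMDMs after LPS, against 0.0674% ± 0.00508 in KO and 0.0715% ± 0.00560 in WT BMDMs without it (SD, n = 3). After LPS most of this share came from *Tnfaip2*, *Tnip3* and *Tnfaip3*. Their means were 75922, 38094 and 32497 normalized counts in KO and 76809, 41254 and 35885 in WT BMDMs. The next gene, *Birc3*, had 8607 in KO and 9228 in WT BMDMs. As these are bulk samples, a change in the share of cells and a change of RNA per cell cannot be told apart. Of all genes called with LPS, 51.1% were higher in KO and 50.3% in WT BMDMs, against 37.2% in KO and 36.4% in WT BMDMs under upper quartile scaling, and 23.8% in KO and 22.4% in WT BMDMs under scaling to total reads.

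**Figure D2:**
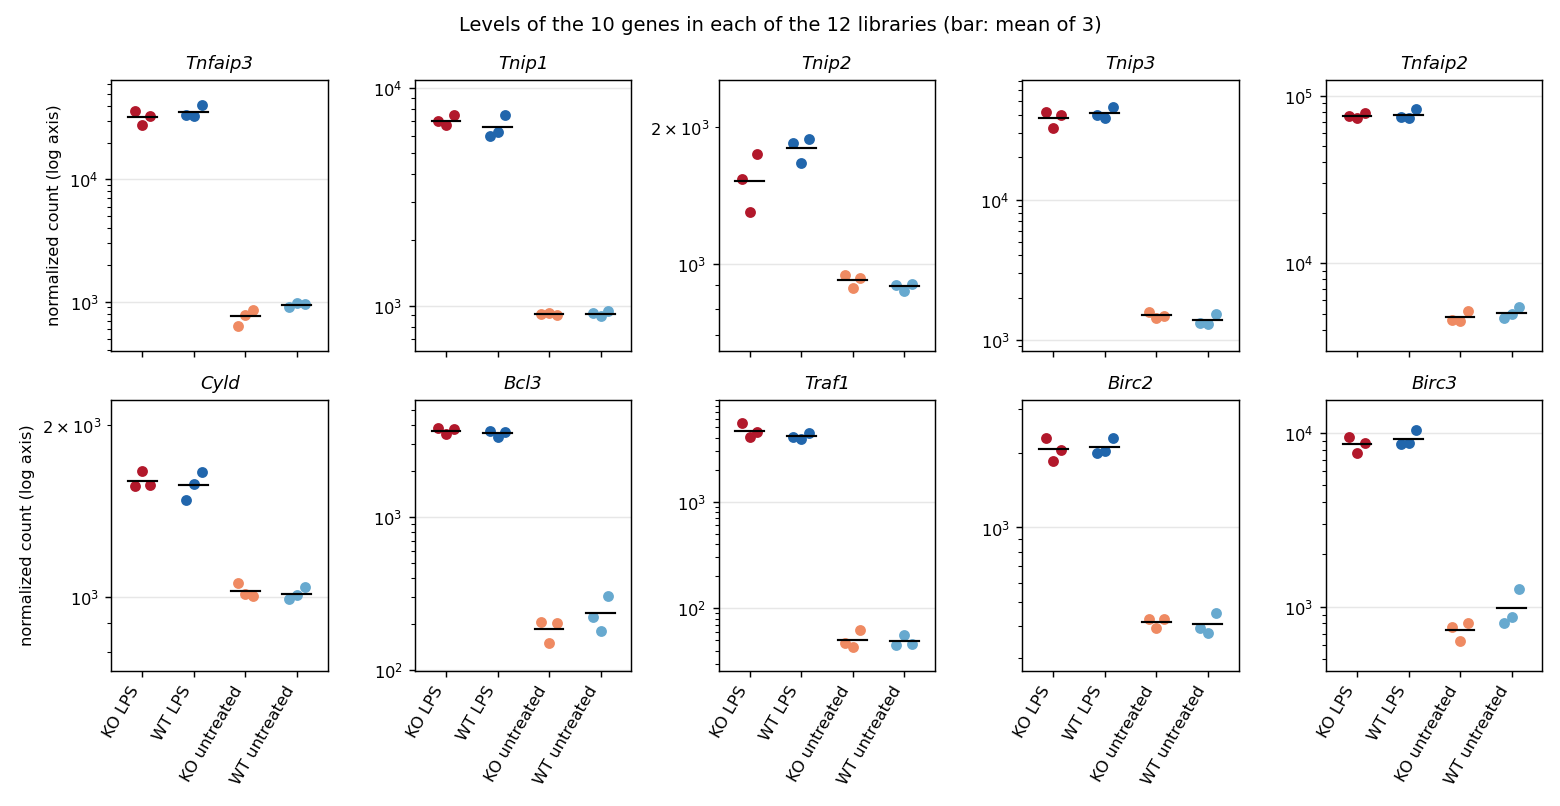
Normalized counts of the 10 genes, a panel per gene with its own log axis. Points are libraries, 3 per group, and bars are group means, with the groups in the order KO LPS, WT LPS, KO untreated and WT untreated. The LPS points lie above all untreated points in each panel, by the widest margin in *Traf1* and by narrow margins in *Tnip2* and *Cyld*.

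*Tnfaip3*, the gene for A20, lies at chr10:19000910-19015657 on the minus strand of GRCm38. *Tnfaip3* had 36602, 28132 and 32758 normalized counts in the KO BMDMs treated with LPS, against 636, 785 and 859 in the untreated KO BMDMs. In WT BMDMs it had 33708, 33105 and 40841 after LPS, against 911, 969 and 949 without it. Every LPS library exceeded every untreated library in both genotypes, and the highest of the 12 was WT LPS replicate 3. The means were 32497 ± 4241 after LPS and 760.0 ± 114 untreated in KO BMDMs, and 35885 ± 4303 after LPS and 943 ± 29.7 untreated in WT BMDMs (SD, n = 3 each). *Tnfaip3* rose by a log2 fold change of 5.42 (42.8-fold) in KO, with an adjusted p of 4.73e-09, and of 5.24 (37.8-fold) in WT BMDMs, with an adjusted p of 1.16e-10, as fitted by limma. The size ranked *Tnfaip3* at place 189 of 12732 genes in KO and at place 184 of 12656 in WT BMDMs, counted from the largest increase.

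The partners of A20 differed widely in how far they moved. *Tnip3* (chr6:65525313-65634040, plus strand) encodes ABIN3, known in human cells as a gene induced by LPS. The KO BMDMs held 42081, 32254 and 39946 normalized counts of *Tnip3* after LPS, against 1579, 1426 and 1472 without it. *Tnip3* in WT BMDMs had 39753, 38049 and 45959.9 after LPS, against 1329, 1299 and 1523 when untreated. The groups did not overlap within a genotype, and again WT LPS replicate 3 was the highest library. It rose by 4.67 on the log2 scale (25.4-fold, adjusted p = 3.30e-09) in KO and by 4.90 (29.8-fold, adjusted p = 2.27e-10) in WT BMDMs (limma). *Tnip1* (chr11:54910785-54962917, minus strand) encodes ABIN1, which binds A20 and ubiquitin chains. *Tnip1* had 6992, 6734 and 7451 normalized counts in the KO BMDMs treated with LPS, against 919, 924 and 907 in the untreated KO BMDMs. The LPS-treated WT BMDMs had 5966, 6225 and 7512, against 920.4, 896 and 939.9 in the untreated WT BMDMs. The untreated libraries of *Tnip1* spread very little, with a coefficient of variation of 0.961% in KO and 2.37% in WT BMDMs, and none overlapped the LPS libraries. *Tnip1* rose 7.68-fold in KO (log2 2.94, adjusted p = 2.49e-09) and 7.11-fold in WT BMDMs (log2 2.83, adjusted p = 3.74e-09).

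*Tnip2* (chr5:34496087-34513991, minus strand) encodes ABIN2, which binds A20 and is known to stabilize the kinase TPL2. The KO BMDMs held 1534, 1301 and 1739 normalized counts of *Tnip2* after LPS, against 946, 890.2 and 936 without it. In WT BMDMs it had 1847, 1665 and 1875 after LPS, against 904, 875 and 908 without it. The LPS libraries again lay above all untreated ones, but by a small margin, and the KO LPS libraries spread more (coefficient of variation 14.4%) than the WT LPS libraries (6.35%). *Tnip2* rose in WT BMDMs by a log2 fold change of 1.001 (95% interval 0.86 to 1.14, adjusted p = 5.47e-07), which is just over the fold threshold, and this was lost under 8 alternatives, among them the edgeR test (0.97) and the fit without WT LPS replicate 3 (0.97). In KO BMDMs its log2 fold change was 0.71 (95% interval 0.48 to 0.94, adjusted p = 2.26e-04), under the fold threshold. Scaled to the total reads of each library, the values of *Tnip2* were 0.03 in KO and 0.28 in WT BMDMs. That scaling moved the median of all genes by -0.68 in KO and -0.72 in WT BMDMs, so it lowers every log2 fold change with LPS by about as much.

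*Cyld* (chr8:88697028-88751945, plus strand) encodes a deubiquitinase that removes linear and lysine-linked chains and acts beside A20 as a brake. *Cyld* had 1566, 1662 and 1571 normalized counts in the KO BMDMs treated with LPS, against 1059.5, 1009.9 and 1004 in the untreated KO BMDMs. *Cyld* in WT BMDMs had 1478, 1575 and 1658 after LPS, against 989.6, 1007 and 1039 when untreated. In both genotypes the LPS libraries lay above the untreated ones without overlap. The log2 fold change was 0.64 (95% interval 0.51 to 0.78, adjusted p = 1.37e-05) in KO and 0.63 (95% interval 0.49 to 0.77, adjusted p = 1.16e-05) in WT BMDMs, under the fold threshold in both, and with libraries scaled to total reads it turned to -0.04 in KO and -0.09 in WT BMDMs. At an adjusted p under 0.05 alone, all 10 genes were higher after LPS in both genotypes, beside 36.3% of all genes tested in KO and 36.7% in WT BMDMs.

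*Traf1* (chr2:34941750-34961772, minus strand) encodes a TRAF protein without a RING domain that binds TRAF2 and the cIAP ligases. The KO BMDMs held 5483, 4029.8 and 4507 normalized counts of *Traf1* after LPS, against 47.3, 42.8 and 62.3 without it. The LPS-treated WT BMDMs had 4038, 3930.1 and 4404, against 45.0, 55.4 and 46.2 in the untreated WT BMDMs. Untreated *Traf1* rested on 50 to 87 reads per library, and all 6 LPS libraries were far above it, the highest being KO LPS replicate 1. *Traf1* rose 90.7-fold in KO (log2 6.50, SE 0.16, adjusted p = 5.24e-09) and 83-fold in WT BMDMs (log2 6.37, SE 0.097, adjusted p = 1.09e-10), the largest change of the 10 genes in both, at place 108 of the genes tested in KO and 96 in WT BMDMs. The ligase genes that TRAF1 works with rose less. *Birc3*, for cIAP2 (chr9:7848699-7873186, minus strand), is a known NF-kB target. *Birc3* had 9419.9, 7631 and 8771 normalized counts in the KO BMDMs treated with LPS, against 763, 638 and 801 in the untreated KO BMDMs. In WT BMDMs it had 8603, 8698 and 10382 after LPS, against 805, 871 and 1266 without it. Replicate 3 was the highest of the untreated WT libraries by a wide gap, and LPS and untreated libraries did not overlap. *Birc3* rose 11.7-fold in KO (log2 3.55, adjusted p = 1.54e-08) and 9.56-fold in WT BMDMs (log2 3.26, adjusted p = 7.38e-08).

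*Birc2*, for cIAP1 (chr9:7818227-7837064, minus strand), is the neighbour of *Birc3*, with 11634 bases between the gene models, and encodes a ligase with the same activity. The KO BMDMs held 2291, 1842 and 2051 normalized counts of *Birc2* after LPS, against 427, 393 and 429.6 without it. *Birc2* in WT BMDMs had 1989, 2019.7 and 2287 after LPS, against 394, 378 and 455 when untreated. The groups did not overlap within a genotype, and after LPS the ranges of the genotypes overlapped. *Birc2* rose 4.92-fold in KO (log2 2.30, adjusted p = 6.20e-08) and 5.13-fold in WT BMDMs (log2 2.36, adjusted p = 1.53e-08). Of the distinct stretches of 100 bases in the transcripts of *Birc3*, 1.76% also occur in *Birc2* or the gene model *Gm7019*, as do 0.330% of those of *Birc2* in *Birc3* or *Gm7019*.

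*Bcl3* (chr7:19808462-19822770, minus strand) encodes a nuclear relative of the IkB proteins that binds NF-kB dimers on DNA. *Bcl3* had 3811, 3465 and 3729 normalized counts in the KO BMDMs treated with LPS, against 207, 151 and 203 in the untreated KO BMDMs. The LPS-treated WT BMDMs had 3617, 3328 and 3592, against 221, 180.2 and 305 in the untreated WT BMDMs. Untreated *Bcl3* was variable, with a coefficient of variation of 16.6% in KO and 27.0% in WT BMDMs, while after LPS it was 4.93% in KO and 4.55% in WT BMDMs. It rose 19.7-fold in KO (log2 4.30, adjusted p = 1.04e-08) and 15.2-fold in WT BMDMs (log2 3.93, adjusted p = 2.64e-08). *Tnfaip2* (chr12:111442469-111455018, plus strand) is a TNF-induced gene known for membrane protrusions rather than for ubiquitin. The KO BMDMs held 76035, 73298 and 78432 normalized counts of *Tnfaip2* after LPS, against 4577, 4514 and 5158 without it. In WT BMDMs it had 74522, 73117 and 82789 after LPS, against 4740.2, 4957 and 5448 without it. Within groups its libraries spread by coefficients of variation of 3.38% to 7.47%, and LPS and untreated libraries did not overlap. *Tnfaip2* rose 16.0-fold in KO (log2 4.00, adjusted p = 2.39e-09) and 15.2-fold in WT BMDMs (log2 3.93, adjusted p = 2.87e-10). Under quantile normalization its log2 fold change was 2.97 in KO and 2.88 in WT BMDMs, while the median of all genes moved by -0.05 in KO and -0.03 in WT BMDMs. Antisense gene models cover 6.51% of the exon bases of *Bcl3* (*Gm16175*) and 6.30% of those of *Tnfaip2* (*Gm40578*), and whether reads were counted by strand is not given in the sources used here, so their reads cannot be told apart there.

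**Figure D3:**
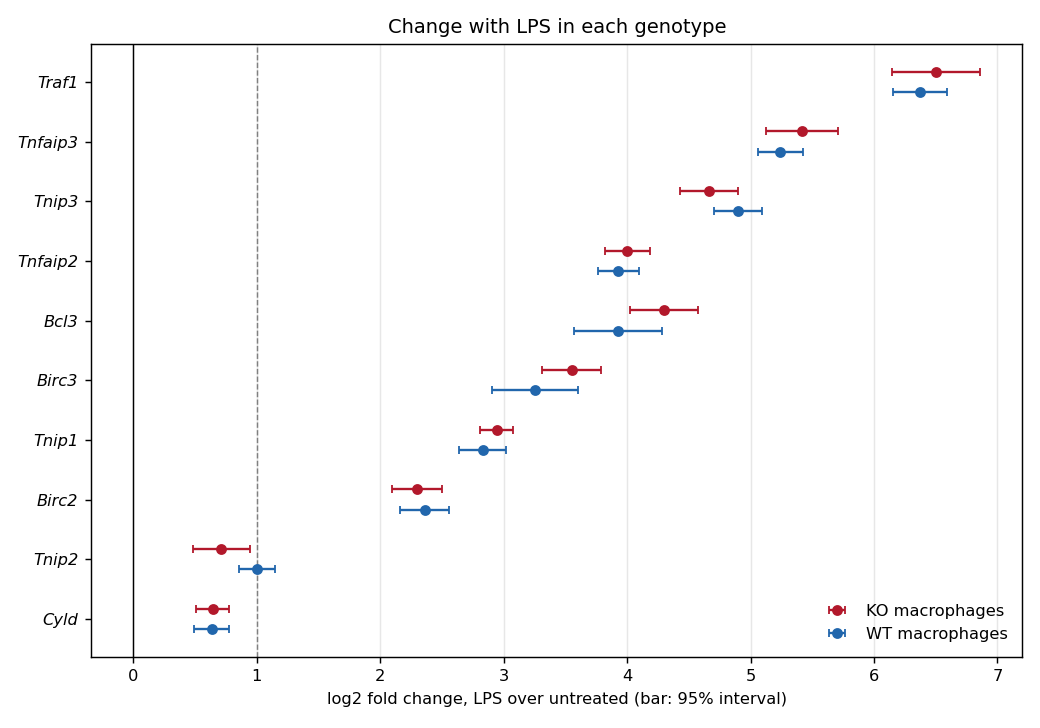
Change of the 10 genes with LPS. The x axis is the log2 fold change of LPS over untreated BMDMs, with points for KO (red, upper of each pair) and WT (blue, lower), bars for 95% intervals of the limma fit and a dashed line at the fold threshold of 1. *Traf1* is farthest right at 6.50 in KO and 6.37 in WT BMDMs, and *Cyld* lies at 0.64 in KO and 0.63 in WT BMDMs, left of the dashed line.

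Levels were compared between genes per kilobase of summed exons. After LPS, *Tnfaip2* was highest, at 15233 ± 515 normalized counts per kilobase in KO and 15411 ± 1049 in WT BMDMs (SD, n = 3), followed by *Tnfaip3* (4497 ± 587 in KO and 4966 ± 595 in WT BMDMs) and *Tnip3* (3489.7 ± 473 in KO and 3779 ± 381 in WT BMDMs). *Tnip1*, *Birc3* and *Bcl3* came next, then *Tnip2*, *Traf1* and *Birc2*. *Cyld* was lowest, at 127 ± 4.29 in KO and 125 ± 7.18 in WT BMDMs. The libraries of *Birc3* and *Bcl3*, of *Tnip2* and *Traf1*, and of *Traf1* and *Birc2* overlapped in KO BMDMs, and those of *Tnip1* and *Birc3*, and of *Traf1* and *Birc2*, in WT BMDMs, so those neighbours were not separated. Without LPS the order was another: *Tnip2* was second to *Tnfaip2*, at 344 ± 11.1 in KO and 334 ± 6.78 in WT BMDMs, and *Tnip1* came after it. *Traf1* was last, at 5.76 ± 1.16 in KO and 5.54 ± 0.649 in WT BMDMs, below every library of the other genes. With the longest transcript as the length, *Tnip3* stood above *Tnfaip3* in all 4 groups. After LPS, *Birc3* then stood above *Tnip1*, and *Traf1* above *Tnip2*, in both genotypes and without overlap, so these orders depend on the length used.

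KO and WT BMDMs were compared to see whether loss of *Rasgef1b* altered these genes. After LPS, 0 of the 10 genes were called between the genotypes by limma, edgeR or DESeq2, beside 0.232% of 12504 genes tested (limma), and 0 passed at an adjusted p under 0.05 alone, beside 0.816%. At an unadjusted p under 0.05 there was 1, *Tnip2*, beside 10.6% of all genes. In *Tnip2* the KO LPS libraries had 1534, 1301 and 1739 normalized counts, against 1847, 1665 and 1875 in the WT LPS libraries. KO LPS replicates 1 and 2 lay below all WT LPS libraries and KO LPS replicate 3 among them. The log2 difference was -0.24 (95% interval -0.47 to -0.02, adjusted p = 0.437 by limma). With 1 library left out it ran from -0.34 to -0.13, the latter without KO LPS replicate 2. The differences of the other 9 genes after LPS ran from -0.14 in *Tnfaip3* to 0.17 in *Traf1* on the log2 scale, and libraries of the genotypes overlapped in all 10 genes, beside 8.35% of genes with all KO libraries higher and 7.73% with all KO libraries lower. The 95% intervals of the 10 differences lay within 0.722-fold and 1.319-fold, well inside the fold threshold of 2.

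Without LPS, 0 of the 10 genes were called between the genotypes by limma, edgeR or DESeq2, beside 0.193% of 12461 genes tested (limma), and 0 passed at an adjusted p under 0.05 alone, beside 0.538%. At an unadjusted p under 0.05 there were 2, *Tnfaip3* and *Birc3*, beside 10.8% of all genes. Both had KO libraries that all lay below the WT libraries, a pattern of 7.98% of the genes tested, while 8.41% had all KO libraries higher. *Tnfaip3* had 636, 785 and 859 normalized counts in untreated KO, against 911, 969 and 949 in untreated WT BMDMs. Its log2 difference was -0.32 (95% interval -0.56 to -0.09, adjusted p = 0.272 by limma), and over the alternatives the adjusted p ran from 0.0986 to 0.588. With 1 library left out the difference ran from -0.42 to -0.20, the latter without KO untreated replicate 1, the lowest library. *Birc3* had 763, 638 and 801 normalized counts in untreated KO, against 805, 871 and 1266 in untreated WT BMDMs. The difference was -0.39 (95% interval -0.77 to -0.02, adjusted p = 0.428 by limma), with adjusted p from 0.114 to 0.622 over the alternatives. With 1 library left out it ran from -0.52 to -0.20, the latter without WT untreated replicate 3, the high library. *Bcl3* differed by -0.31 with overlapping libraries (95% interval -0.76 to 0.14), and by -0.11 without WT untreated replicate 3 and -0.49 without WT untreated replicate 2. The differences of the remaining 7 genes ran from -0.09 in *Tnfaip2* to 0.11 in *Tnip3*. The intervals of the 10 differences lay within 0.588-fold and 1.38-fold.

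**Figure D4:**
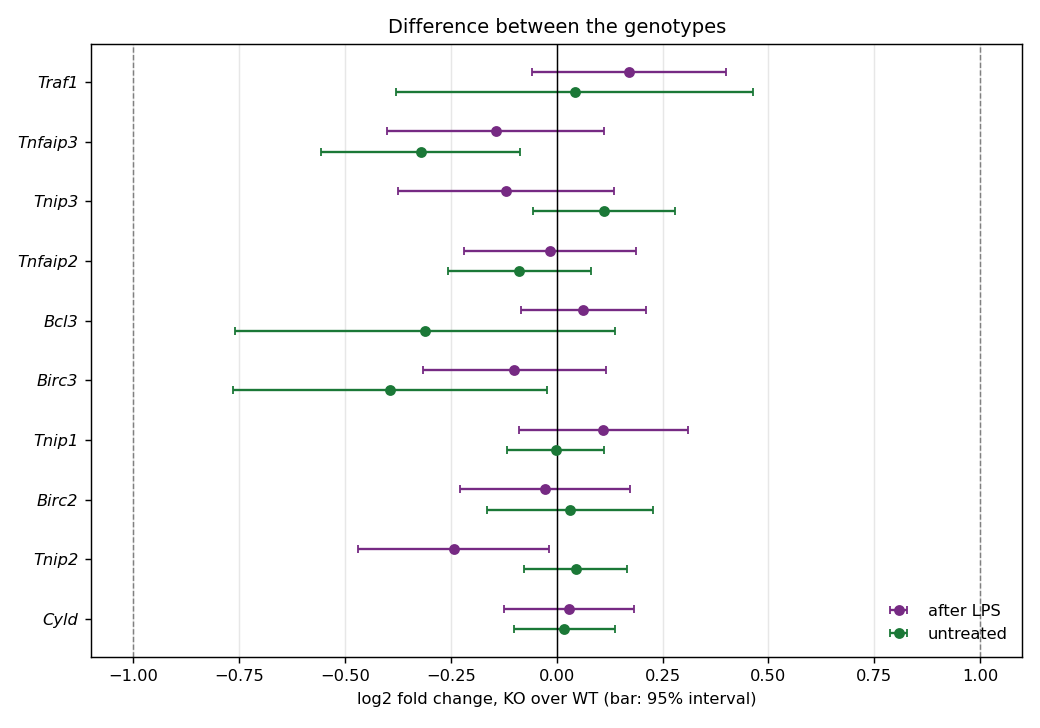
Difference between the genotypes for the 10 genes. The x axis is the log2 fold change of KO over WT BMDMs, with points after LPS (purple, upper of each pair) and untreated (green, lower), bars for 95% intervals of the limma fits and dashed lines at the fold thresholds of -1 and 1. All points lie between -0.39 and 0.17, and no interval reaches a dashed line.

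The interaction tested whether the change with LPS differed between the genotypes. It was called for 0 of the 10 genes by limma, edgeR or DESeq2, beside 0.00787% (1) of 12711 genes tested (limma), and at an unadjusted p under 0.05 for 1, *Tnip2*, beside 4.22% of all genes. The LPS effect in KO minus that in WT BMDMs was -0.29 for *Tnip2* (95% interval -0.56 to -0.02, adjusted p = 0.999). It was 0.37 for *Bcl3* (95% interval -0.11 to 0.86) and 0.29 for *Birc3* (95% interval -0.16 to 0.75), the widest intervals of the 10 genes. For the A20 gene *Tnfaip3* it was 0.18 (95% interval -0.18 to 0.54). *Traf1* had 0.13 (95% interval -0.30 to 0.56). Over the 10 genes the lowest and highest interval bounds were ratios of the LPS effects of 0.679 and 1.81. With 1 library left out, the interaction value ran from 0.17 (without WT untreated replicate 3) to 0.55 (without WT untreated replicate 2) in *Bcl3* and from 0.095 (without WT untreated replicate 3) to 0.42 (without WT untreated replicate 1) in *Birc3*. It ran from -0.39 (without KO LPS replicate 3) to -0.18 (without KO LPS replicate 2) in *Tnip2*, from 0.054 (without KO untreated replicate 1) to 0.28 (without KO LPS replicate 2) in *Tnfaip3* and from 0.0071 (without KO LPS replicate 1) to 0.28 (without KO untreated replicate 3) in *Traf1*, so the size of each rests on single libraries. That *Tnip2* was called with LPS in WT and not in KO BMDMs was not a difference that this test found.

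The 10 genes tended to be high or low in the same libraries. KO LPS replicate 2 was the lowest of its group in 9 of the 10 genes, all but *Cyld*, and in 58.3% of the 2201 genes that rose in KO BMDMs. WT LPS replicate 3 was the highest of its group in 9 of the 10, all but *Bcl3*, and in 64.6% of the 2158 genes that rose in WT BMDMs. The median deviation of the 10 genes from the group mean was -0.16 on the log2 scale in KO LPS replicate 2 and 0.12 in WT LPS replicate 3. In untreated KO BMDMs, replicate 2, the library with 5.06% of reads on the *Rn45s*-like gene model, was lowest in 7 of the 10 genes and in 44.3% of the 2201. Untreated WT replicate 3 was highest in 8 of the 10 and in 37.6% of the 2158, by the largest amount in *Birc3* and *Bcl3*. With each library left out in turn, 0 of the 10 genes were called between the genotypes.

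**Figure D5:**
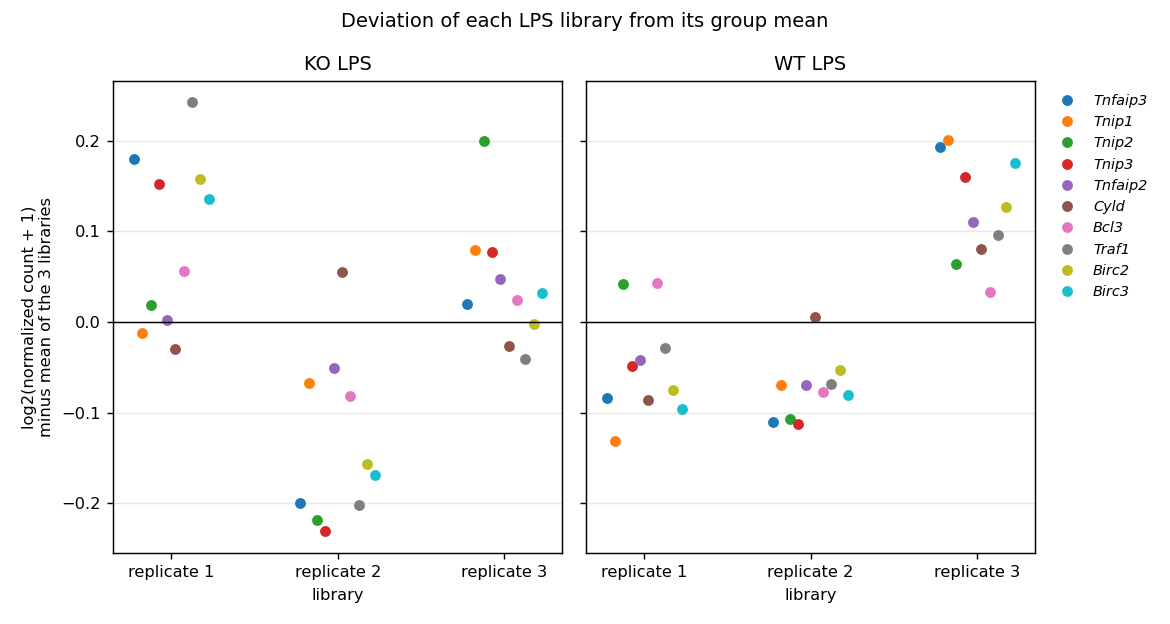
Deviation of the 10 genes in each LPS library from the mean of its group. The y axis is log2(normalized count + 1) minus the mean of the 3 libraries, the panels are KO LPS (left) and WT LPS (right), and colours are genes. In KO LPS replicate 2 all genes but *Cyld* lie below 0, and in WT LPS replicate 3 all 10 lie above it.

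As a description over the 12 libraries, the genes with the most similar pattern were named for 4 of the 10 by Pearson correlation of log2(normalized count + 1) over 12710 genes. Nearest to *Tnfaip3* were *Lag3*, *Clic4* and *Ankib1*, with r = 0.9995, 0.9990 and 0.9990. Nearest to *Traf1* were *Traf2*, *Mtmr14* and *4930453N24Rik* (r = 0.999 each), and *Traf2* encodes the adaptor that TRAF1 binds. Nearest to *Birc2* were *Cnot4*, *Tab2* and *Parp8* (r = 0.999 each), and nearest to *Cyld* were *Ino80*, *Med13* and *Pam* (r = 0.997, 0.996 and 0.996). The 12 points fall into untreated and LPS libraries and share that step, and 3438 to 3549 genes had r above 0.9 with each of these 4.

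Other genes of the system were counted from lists of related genes, all read in the same fits, in which 17.3% of genes rose and 16.6% fell in KO, and 17.1% rose and 16.9% fell in WT BMDMs. Among 6 genes for making and removing linear chains, or related to such genes, 1 rose and 1 fell with LPS in each genotype. *Rnf31*, for the ligase HOIP, rose by 2.98 in KO and 2.91 in WT BMDMs on the log2 scale, and *Otulinl*, a relative of the linear-chain deubiquitinase gene, fell (-2.60 in KO and -2.78 in WT BMDMs). The linear-chain deubiquitinase gene itself, *Otulin*, was not called (-0.43 in KO and -0.58 in WT BMDMs). Of 9 other TRAF and TRAF-associated genes tested, 3 rose and 1 fell in each genotype. *Traf2* rose by 2.702 in KO and 2.701 in WT BMDMs and *Trafd1* by 2.89 in KO and 2.72 in WT BMDMs, *Traf3ip2* rose as well (1.59 in KO and 1.65 in WT BMDMs), and *Traf3ip3* fell (-3.72 in KO and -3.37 in WT BMDMs). Of 8 other genes of the IAP family and its antagonists tested, *Xiap* alone was called, at 1.12 in KO and 1.14 in WT BMDMs, while *Birc2* and *Birc3* both rose. The medians of these 3 lists lay between -0.02 and 0.37 over both genotypes, against 3.78 in KO and 3.59 in WT BMDMs for the 10 genes. The genes and lists were chosen with earlier results of these data known, so this contrast is a description.

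Of the 3 A20 partner genes outside the ABIN family, *Tax1bp1*, an adaptor that brings A20 to its targets, rose (1.52 in KO and 1.63 in WT BMDMs), and the others were not called. Among 14 other deubiquitinase genes tested, 5 rose and 1 fell in each genotype, led by *Usp18*, an interferon-induced gene (6.09 in KO and 5.41 in WT BMDMs), *Otud1* (2.60 in KO and 2.90 in WT BMDMs) and *Usp25* (2.81 in KO and 2.77 in WT BMDMs), with *Usp2* falling (-3.41 in KO and -2.57 in WT BMDMs). Of 10 ubiquitin and conjugating enzyme genes, 3 rose in each genotype, *Ube2l6* (1.90 in KO and 1.83 in WT BMDMs), *Ube2d1* (1.21 in KO and 1.14 in WT BMDMs) and *Ube2d3* (1.07 in KO and 1.06 in WT BMDMs). Of 7 readers of ubiquitin chains, 3 rose and 1 fell in each genotype. *Tab2* rose by 2.03 in KO and 2.13 in WT BMDMs, *Optn* by 1.76 in KO and 1.86 in WT BMDMs and *Sqstm1* by 1.43 in KO and 1.38 in WT BMDMs, and *Nbr1* fell (-1.68 in KO and -1.55 in WT BMDMs). Of 18 kinases and adaptors on which the feedback acts, 8 rose in each genotype, and 1 fell in KO and 3 in WT BMDMs. The medians of these 5 lists lay between 0.30 and 0.74 over both genotypes. Among the kinases and adaptors, those with the largest changes in WT BMDMs were *Ripk2* (4.75 in KO and 4.76 in WT BMDMs), *Cflar* (4.07 in KO and 4.12 in WT BMDMs), *Ikbke* (3.14 in KO and 2.81 in WT BMDMs) and *Myd88* (2.58 in KO and 2.63 in WT BMDMs). Between the genotypes and in the interaction, 0 genes of any of these lists were called, and at an adjusted p under 0.05 alone there was 1, *Ube2c*, a mitotic conjugating enzyme gene named after its value was seen (log2 0.57 in KO over WT BMDMs after LPS, adjusted p = 0.0335 by limma).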

How the data were processed

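Bone-marrow-derived macrophages were sequenced as poly(A)-selected, paired-end libraries, 12 in 4 groups of 3. The submitters' processing notes and the study's methods name bcl2fastq 2.17, Trimmomatic 0.39, STAR 2.7.4a on GRCm38, featureCounts of Subread 2.0.1 and DESeq2 1.32.0 in R 4.1.2. The deposited values are a signal per gene, made by the authors by dividing each library's gene counts by a DESeq2 size factor. Whole reads could be recovered from 100% of the values within 1e-06 reads. Because a size factor sets the LPS libraries against the untreated ones, fold changes with LPS depend on it.

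Differences were tested with limma 3.58.1 (R 4.3.3) on log2(normalized count + 1), with a trended variance, over the groups compared and genes with a mean of at least 10. A fold change on this scale understates that of low genes. P-values were adjusted by Benjamini-Hochberg over all genes tested, and genes were called at a log2 fold change of 1 or more in either direction with an adjusted p under 0.05. The interaction used all 12 libraries and the adjusted p alone. Intervals are 95% intervals of the fit. The alternatives were edgeR 4.0.16 (quasi-likelihood) and DESeq2 1.42.0, both fed with the recovered reads, other pseudocounts, filters, scalings, variance models, thresholds, a replicate block, and leaving out each library. The limma fit was tested on simulated data.

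All 10 genes are named. Of each list of related genes, up to 4 were named, those with the largest change with LPS in WT BMDMs among the called. *Otulin* was named outside this rule, beside its relative *Otulinl*. The genes and lists were chosen with earlier results of these data known. Replicate numbers paired LPS with untreated libraries within a genotype (correlations of deviations of 0.29, 0.28 and 0.17 in KO and 0.33, 0.19 and 0.24 in WT BMDMs) but not KO with WT libraries (-0.20 to 0.24). The study's methods call its comparisons unpaired, between different BMDM samples, which is why no block entered the fits reported. Which mouse gave which library is not given in the sources used here, so p-values measure the spread between these libraries. Promoter windows are from RefSeq (GRCm38.p6), and gene positions from GRCm38. Figures were drawn with matplotlib 3.10.9 in Python 3.11.15.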

Additional observations from a re-analysis of the deposited data

How the results depend on the processing

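Of 1099 values of the 10 genes recomputed under the alternatives, 11 changed their side of the threshold, all of them changes with LPS in *Tnip2* and *Cyld*. In KO BMDMs 8 of the 10 genes rose under every alternative but the adjusted p alone, which gave 10. In WT BMDMs the count was 9, or 10 at the adjusted p alone, and 8 where *Tnip2* missed the fold threshold, with a log2 fold change of 0.998 at a pseudocount of 5, 0.68 under upper quartile scaling, 0.68 under quantile normalization, 0.97 with edgeR, 0.28 under scaling to total reads, an alternative chosen after seeing the data, 0.98 without WT untreated replicate 2, 0.98 without WT LPS replicate 1 and 0.97 without WT LPS replicate 3. Scaling to total reads moved the median of all genes by -0.68 in KO and -0.72 in WT BMDMs, and upper quartile scaling by -0.32 in both. Quantile normalization moved it by -0.05 in KO and -0.03 in WT BMDMs, but gave clearly lower log2 fold changes with LPS in several genes. Among them, *Tnfaip2* was at 2.97 in KO and 2.88 in WT BMDMs, and *Tnip3* at 3.98 in KO and 4.22 in WT BMDMs. *Tnfaip3* was at 4.86 in KO and 4.63 in WT BMDMs, and *Birc3* at 3.01 in KO and 2.65 in WT BMDMs. Between the genotypes and in the interaction, 0 of the 10 genes were called under every alternative run. Over all comparisons 27 values that were not called changed sign, among them the change of *Cyld* with LPS under scaling to total reads, at -0.04 in KO and -0.09 in WT BMDMs. With the longest transcript in place of summed exons, 5 or 6 of the 10 genes per group moved in the order of levels, by at most 2 places.

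The replicate block changed no call of the 10 genes. With LPS in KO BMDMs, where the numbers pair the libraries, it lowered the SE of each of the 10 genes. The SE went from 0.105 to 0.0546 in *Birc3* and from 0.0589 to 0.0580 in *Cyld*. The intervals printed for changes with LPS and for the interaction do not use this pairing. Untreated, between the genotypes, where the numbers do not pair the libraries, the block gave adjusted p of 0.0986 for *Tnfaip3* and 0.114 for *Birc3* (limma). Over all genes, the count called with LPS was 4309 in KO and 4294 in WT BMDMs, against 9174 in KO and 9266 in WT BMDMs at the adjusted p alone. The count called between the genotypes after LPS was 29, against 5 without the variance trend, 13 at an adjusted p under 0.01, 102 at the adjusted p alone and 11 to 42 with a library left out. It was 43 with DESeq2, 41 with no filter, 27 with the block and 21 at a mean of at least 50. Untreated it was 24, against 2 without the trend, 44 with the block, 50 with DESeq2, 42 with no filter, 11 at a mean of at least 50, 4 at an adjusted p under 0.01, 67 at the adjusted p alone and 4 to 26 with a library left out. The interaction gave 1, against 24 with DESeq2, 3 with the block, 6 with the block within genotype and 1 to 3 with a library left out. With 3 libraries per group the printed intervals limit what can be said of the genotypes, and untreated *Traf1*, at 50 to 87 reads per library, carries the most counting error. The causes of these changes were not tested.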
